A study of Gallus gallus with 12 samples.

Results

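The genes described here are the cyclins, the cyclin-dependent kinases (CDKs), the CDK inhibitors of the *CDKN* family and the CDC25 phosphatases of DT40, a B cell line of the chicken in which genes are readily disrupted by targeting. They were chosen by symbol alone, from the name that the expression tables attach to each Ensembl identifier, and the rule itself uses no measured value. The rule found 46 of the 24356 genes in the tables. They comprised 23 cyclins (3 D-type G1 cyclins, 4 S and G1/S cyclins, 3 M cyclins, 6 transcriptional and 7 other cyclins), 16 CDKs (4 cell-cycle, 5 transcriptional and 7 other), 5 CDK inhibitors and 2 CDC25 phosphatases. *CDK4*, *CCNB1* and *CDC25C* were not found under these symbols and are not analysed here.

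Poly(A) RNA was sequenced from 4 lines, each with 3 libraries, which the study describes as independent biological replicates: wild type, *timeless*, *ddx11* and *fancj*. All are DT40 cells grown in the same medium with no drug stated, so wild type differs from the mutants only in genotype as far as the labels say. In the study's growth curves without drug, *timeless* and *ddx11* cells had longer doubling times than wild type. Per the labels the *timeless* and *ddx11* lines were made by CRISPR-Cas9 disruption, which the study directed to the first exon of *TIMELESS*, on both alleles, and to the fourth exon of *DDX11*. Timeless is a component of the replisome, DDX11 is a helicase that works with it, and FANCJ, encoded by *BRIP1*, is a helicase of the Fanconi anaemia pathway. The *fancj* line had been described earlier, and its allele is not described further in the labels. The sources used here do not state which clone of a line was sequenced. Were the 3 libraries of a line from 1 clone, a change peculiar to that clone and an effect of the disrupted gene cannot be told apart.

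Most CDKs are active only with a bound cyclin, and the cell cycle advances because successive cyclins are made and destroyed. D-type cyclins with CDK4 or CDK6, and E-type cyclins with CDK2, phosphorylate RB and so release the E2F transcription factors, which switch on genes for S phase. Cyclin A and cyclin B then drive S phase and mitosis with CDK2 and CDK1. In mammals the INK4 inhibitors, encoded by *CDKN2* genes, bind CDK4 and CDK6. What the chicken gene named *CDKN2A* encodes was not tested. The CIP/KIP inhibitors (*CDKN1* genes) act on cyclin-CDK complexes, and the CDC25 phosphatases remove the inhibitory phosphates from CDK1 and CDK2. A further set of cyclins and CDKs phosphorylates RNA polymerase II or acts in Mediator. In bulk RNA from a culture, a different share of cells in a phase and a different level per cell cannot be told apart.

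The disrupted genes and the libraries were examined first. *TIMELESS* stood at 34.2 to 48.4 TPM (transcript abundance scaled for gene length and library size) in wild type and at 21.4 to 24.3 TPM in *timeless* (log2 -0.78, adjusted p = 0.0175, edgeR). It was also below every wild-type library in those labelled *fancj*, at 30.5, 21.3 and 8.88 TPM (-1.04, adjusted p = 0.117), so its mRNA does not set *timeless* apart from that line. *DDX11* stood at 10.5 to 15.5 TPM in wild type and at 4.53 to 7.03 TPM in *ddx11*. *BRIP1* was 8.52, 5.16 and 6.59 TPM in wild type and 7.81, 8.47 and 1.23 TPM in the libraries labelled *fancj*, so its mRNA does not separate that line from wild type and gives no check of the label. These libraries are therefore named by their label. B cell markers were present throughout, with 9 of 10 listed genes in the tables and a summed level of 476 to 1564 TPM over the 12 libraries. The T cell list summed to 53.1 to 221 TPM, most of it from *CD3D* (50.5 to 215 TPM). The *CD8A* entries reached at most 12.2, 3.85 and 5.17 TPM. *CD3E*, *LCK* and *CD28* reached at most 1.51, 1.18 and 1.01 TPM, and *CD4* and *ZAP70* were at or below 0.25 TPM. The myeloid list summed to at most 62.6 TPM, most of it *SPI1*, which B cells also express. The fibroblast list reached at most 24.0 TPM, with *COL1A2* at up to 22.6 TPM. The erythroid or thrombocyte list reached at most 11.1 TPM, with *HBBA* at up to 10.8 TPM. *HBA1* and *DCN* were at 0 in every library. In the libraries labelled *fancj*, *HBBA* and the low *CSF1R* passed the test as higher and *COL1A1* as lower than in wild type, *CD3D* passed as lower in *ddx11*, and a *CD8A* entry was lower in *timeless* than in *ddx11*. The part of these marker genes in the results below was not tested.

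Library 3 of the line labelled *fancj* stood apart. Spearman's rho with the other libraries of its line was 0.9 and 0.897, against 0.951 to 0.995 within the other lines. Among 1149 genes of at least 4000 bases, its median log2 difference from the wild-type median was -1.33, while those of the other libraries lay between -0.37 and 0.34. Among 3105 genes shorter than 1500 bases its median was 0.02. This library was the lowest of its line for 30 of the 42 expressed members, and for 69.2% of all expressed genes. For the members called in this line, the fit without it is therefore also given. All other values of this line include it unless stated, among them those of the listed genes that are not members.

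Most of the group was well expressed in wild type. By the mean of 3 libraries, 10 members stood at 100 TPM or more, 27 between 10 and 100 TPM, 5 between 1 and 10 TPM and 4 under 1 TPM. The highest was *CDK1*, the mitotic kinase, at 527 ± 10.5 TPM (SD, n = 3), which ranked 258th among all genes of the tables. *CDK2*, the kinase of S phase, stood at 505 ± 41.4 TPM, and the ranges of the 2 genes overlapped. Next came the mitotic cyclin *CCNB2* at 458 ± 25 TPM, whose highest library (473 TPM) also overlapped the lowest of *CDK2* (458 TPM). *CDKN2A* followed at 354 ± 16.8 TPM, below every library of those 3 genes and above every library of *CDC25B* (287 ± 33.8 TPM). The plot of wild-type levels by class shows this order.

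**Figure D1:**
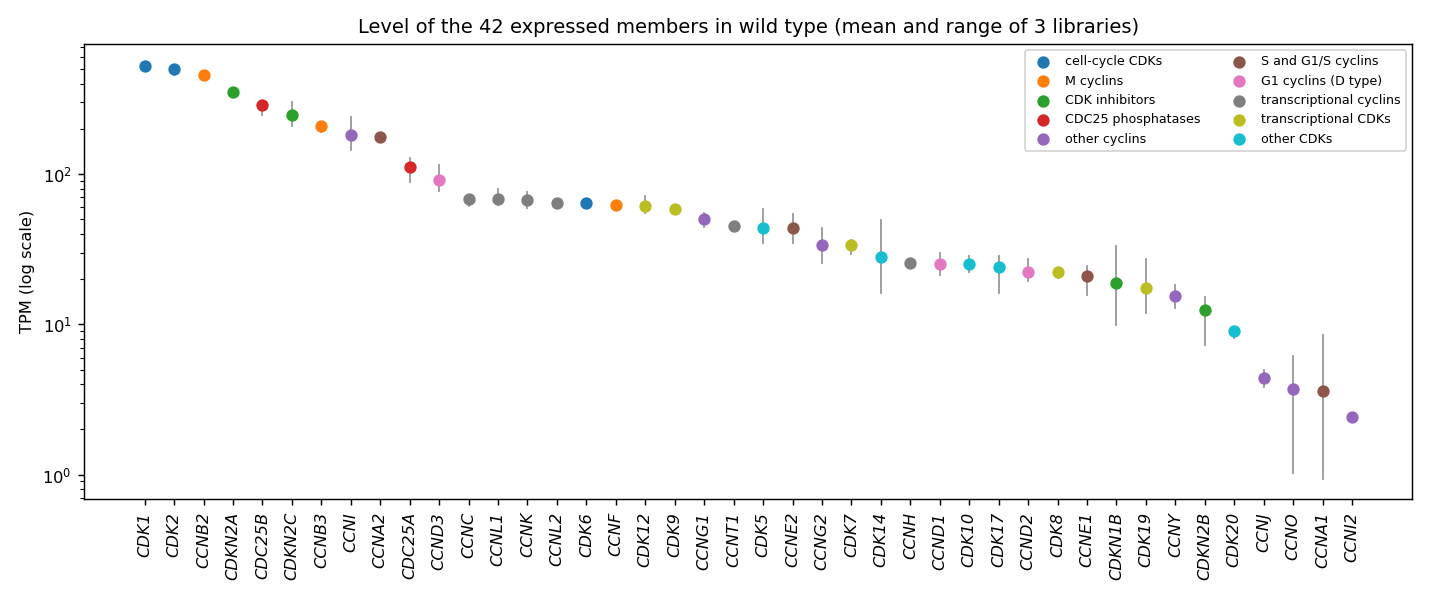
Level in wild type of the 42 members that reached 1 TPM, in TPM on a log scale, each point the mean of 3 libraries and each grey line their range, with colour giving the class. *CDK1*, *CDK2* and *CCNB2* lie at the top between 458 and 527 TPM, and *CCNI2* is lowest at 2.40 TPM.

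Within classes the levels were uneven. Among the D-type cyclins *CCND3* was highest, at 91.6 ± 20.5 TPM, and made 61.0% to 71.6% of the summed D-type TPM in the wild-type libraries. *CCND1* (25.4 ± 4.33 TPM) and *CCND2* (22.4 ± 4.06 TPM) overlapped each other. *CDK6*, the D-type partner that the tables name, stood at 63.7 ± 4.14 TPM. *CCNE2* (43.6 ± 9.65 TPM) lay above *CCNE1* (21.0 ± 4.75 TPM) in every wild-type library, and made 60.4% to 77.6% of their sum. Among S-phase and mitotic cyclins, *CCNA2* stood at 175 ± 11.2 TPM, whereas *CCNA1*, which in mammals is largely a germ cell cyclin, was at 3.61 ± 4.26 TPM. The SD of *CCNA1* came from 1 library, at 8.53 TPM, against 0.94 and 1.37 TPM in the others.

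Levels of the inhibitors were uneven within both families, *CDKN2* and *CDKN1*. *CDKN2A* and *CDKN2C* (248 ± 47.1 TPM) were among the 10 highest members, and *CDKN2B* was at 12.5 ± 4.55 TPM. Of the CIP/KIP genes, *CDKN1B*, encoding p27, was at 18.8 ± 12.7 TPM. *CDKN1A*, encoding p21, a target of p53, held at most 5 expected counts (0.31 TPM) in any of the 12 libraries. *CDK3* reached at most 0.3 TPM, *CDK15* 0.18 TPM and *CDK18* 1.26 TPM. These 4 members did not reach a mean of 1 TPM in a line and were not tested, which left 42 of 46 tested in each comparison.

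The question of each comparison is how loss of Timeless, DDX11 or FANCJ alters the RNA of these genes. Libraries of 2 lines were compared by the quasi-likelihood test of edgeR on rounded expected counts, p-values being adjusted by Benjamini-Hochberg over all genes tested, and a gene is called altered at an adjusted p under 0.05. Fold changes are log2 values with the SE in parentheses. All 3 comparisons with wild type share the same wild-type libraries.

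In *timeless*, 3 of 42 members were altered: *CDKN2B* and *CCNE2* fell and *CCNI2* rose. Over all 11653 genes tested, 3.89% fell and 4.31% rose, so the count of members, 2 lower and 1 higher of 42, is near the background. The median log2 fold change of the members was -0.24, against 0.01 over all genes. That median includes 6 members on a chromosome with many genes lower in *timeless*, described below. At an unadjusted p under 0.05 there were 11 members (26.2%) and 21.7% of all genes. The *timeless* and wild-type libraries did not overlap for 14 members (33.3%), 12 of them lower in *timeless*, against 27.6% of all genes.

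*CCNE2* (ENSGALG00000040794), a cyclin that activates CDK2 at the start of S phase, gave the most stable of these calls. It stood at 53.9, 34.8 and 42.1 TPM in wild type and at 21.3, 18.3 and 14.03 TPM in *timeless*. Every *timeless* library lay below every wild-type library. The log2 fold change was -1.23 (SE 0.20, adjusted p = 0.00852, edgeR), and it stayed altered when any 1 of the 6 libraries was left out (-1.35 to -1.06). Levels in *ddx11*, 46.3, 31.2 and 39.3 TPM, overlapped wild type (-0.23, SE 0.18, adjusted p = 0.686). In the libraries labelled *fancj* they were 31.5, 31.3 and 17.97 TPM, all below wild type, with a log2 fold change of -0.69 (SE 0.21) that did not pass in edgeR (adjusted p = 0.134) but was called by DESeq2 and by the fit of all 12 libraries. *CCNE1*, the paralogue, differed from wild type in *timeless* by -0.06 (SE 0.20), with 20.6, 18.4 and 18.5 TPM against 15.6, 22.8 and 24.6 TPM. The share of *CCNE2* in the summed E-type TPM was accordingly 43.1% to 50.8% in *timeless* and 60.4% to 77.6% in wild type, without overlap. The expected counts of *CCNE2* were not whole in any library, which means that part of its reads was shared with another gene or transcript.

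*CCNE2* lies on the chromosome that held the most genes lower in *timeless*. In a RefSeq table of another chicken assembly, which matched 43 of the 46 members by symbol, 661 tested genes were on that chromosome. Of these 28.0% were lower in *timeless* than in wild type, with a median log2 fold change of -0.57, against 2.2% and a median of 0.00 for the 7336 matched genes elsewhere. In *ddx11* and the libraries labelled *fancj* the medians on that chromosome were -0.03 and 0.12. It carries 6 members: *CCNE2*, *CCNY*, *CDC25A*, *CDK5*, *CDK6* and *CDK14*. All 6 had negative values in *timeless*, between -1.23 for *CCNE2* and -0.40 for *CDK5*, and that of *CCNE2* was the farthest from the chromosome's median. Negative values were not confined to these 6: *CDK19* (-0.94) and *CCNF* (-0.82) lie elsewhere. The median of the 42 tested members, -0.24, includes the 6, and a median without them was not computed. The value of *CCNY*, -0.54, had an SE of 0.61. The part of the chromosome in these values was not tested. *CDKN2B* and *CCNI2* are on other chromosomes.

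*CDKN2B* (ENSGALG00000026137), which encodes the INK4 inhibitor p15, had the largest fall of the members in *timeless*. It was at 7.23, 15.04 and 15.2 TPM in wild type and at 2.49, 4.19 and 2.38 TPM in *timeless*, with no overlap. The log2 fold change was -2.00 (SE 0.38, adjusted p = 0.0163, edgeR). It passed in 2 of the 6 fits that left out a library, with values of -2.33 to -1.82 and adjusted p of 0.0107 to 0.0675, and was lost without *timeless* library 1 or 3 or wild-type library 2 or 3. In *ddx11* the levels were 9.55, 11.8 and 13.1 TPM, all within the wild-type range (-0.19, SE 0.31). In the libraries labelled *fancj* they were 24.6, 27.6 and 29.0 TPM, above every other library of the series. That difference from wild type was 1.20 (SE 0.38) and did not pass in edgeR (adjusted p = 0.153), while DESeq2 called it. The adjacent gene in the RefSeq table, *CDKN2A*, which in mammals encodes p16 and ARF, showed another pattern. It was at 349, 373 and 341 TPM in wild type and 350, 377 and 339 TPM in *timeless* (0.07, SE 0.15). Both genes had expected counts that were not whole in all 12 libraries, so their reads were partly shared and each level is uncertain to that extent.

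*CCNI2* (ENSGALG00000023812) was the member that rose in *timeless*, from a low level. Its wild-type libraries lay close together, at 2.44, 2.38 and 2.37 TPM, and those of *timeless* were at 7.06, 9.05 and 4.93 TPM. The log2 fold change was 1.52 (SE 0.34, adjusted p = 0.03, edgeR), and it passed in 1 of the 6 fits without a library (1.29 to 1.67), the one without *timeless* library 3. The level was 4.85, 3.85 and 4.82 TPM in *ddx11* (0.76, SE 0.31, adjusted p = 0.385) and 5.34, 9.89 and 4.23 TPM in the libraries labelled *fancj* (1.34, SE 0.38, adjusted p = 0.113). All 9 mutant libraries were above all 3 wild-type libraries, although of the 6-library edgeR fits against wild type only that of *timeless* passed. DESeq2 and the fit of all 12 libraries also called the difference in the libraries labelled *fancj*. These levels rested on 22 to 107 expected counts a library. Its better expressed relative *CCNI* did not pass in any line, with 239, 144 and 167 TPM in wild type and 138, 191 and 130 TPM in *timeless* (-0.19, SE 0.23).

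**Figure D2:**
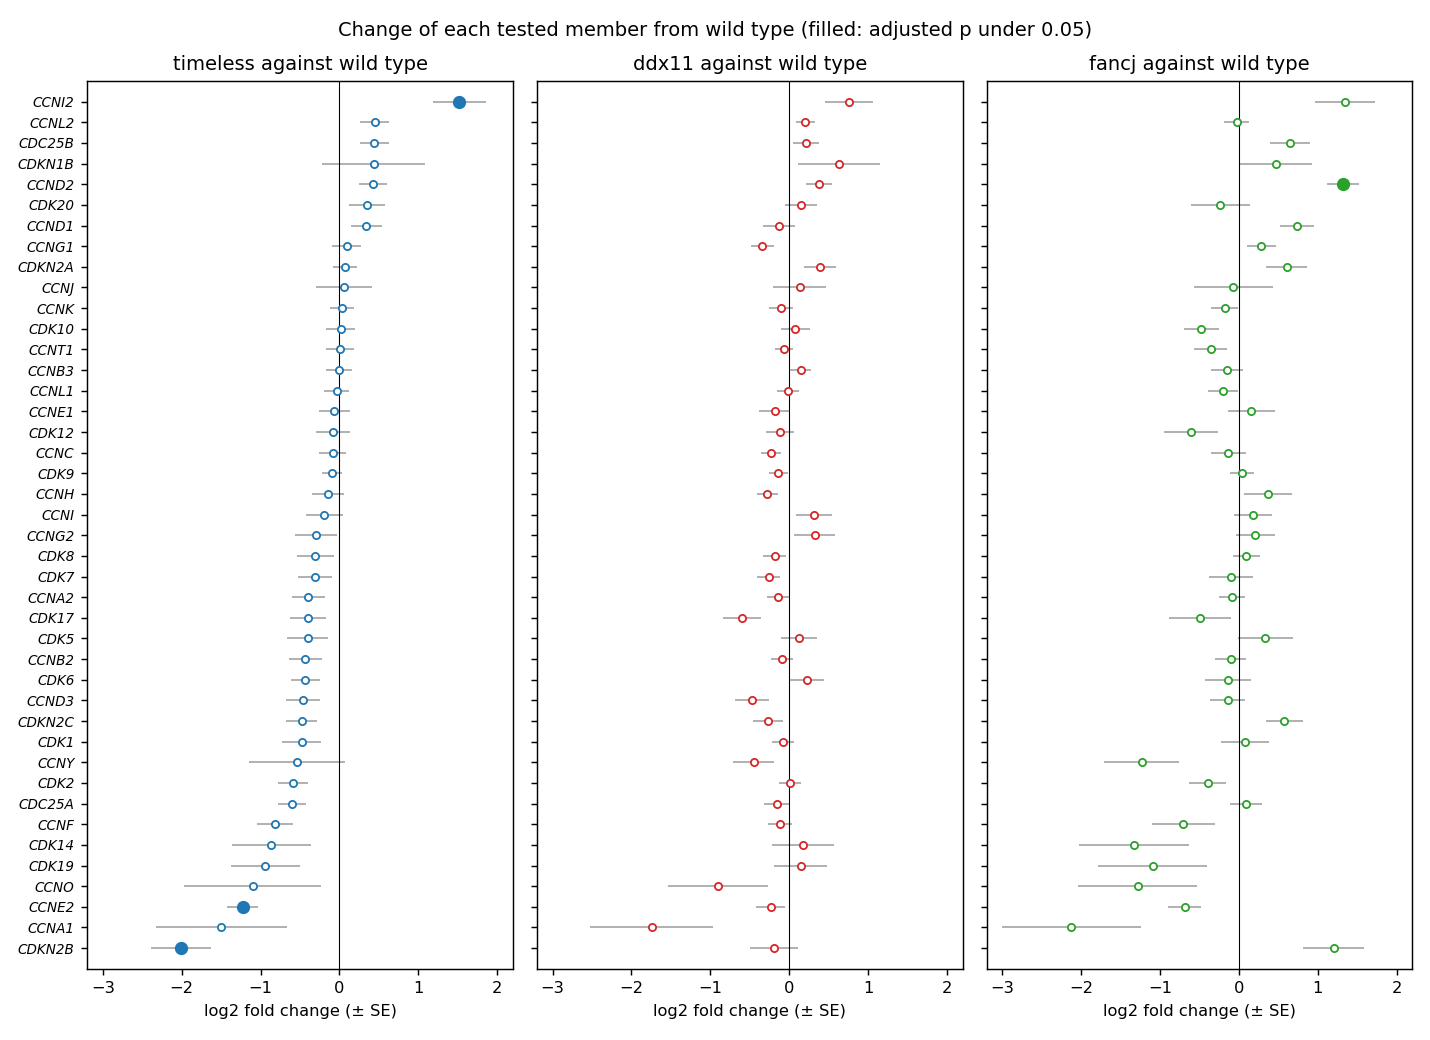
Log2 fold change from wild type (horizontal axis, with its SE) of the 42 tested members in *timeless*, *ddx11* and the libraries labelled *fancj*, in the order of their value in *timeless*. Filled points passed at an adjusted p under 0.05: *CDKN2B*, *CCNE2* and *CCNI2* in *timeless*, none in *ddx11* and *CCND2* in *fancj*.

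The 3 tested kinases of the cell cycle, *CDK1*, *CDK2* and *CDK6*, had lower levels in each *timeless* library than in any wild-type library, yet none passed in edgeR. *CDK1* was at 535, 515 and 530 TPM in wild type and at 448, 221 and 420 TPM in *timeless* (-0.48, SE 0.25, adjusted p = 0.308). *CDK2* was at 522, 458 and 535 TPM and at 370, 237 and 357 TPM (-0.59, SE 0.19, adjusted p = 0.111). *CDK6* was at 63.0, 60.1 and 68.2 TPM and at 51.6, 49.6 and 32.9 TPM (-0.43, SE 0.18, adjusted p = 0.212). For *CDK1* and *CDK2* the lowest value was in *timeless* library 2, which was the lowest of its line for 22 of the 42 members and for 37.3% of all expressed genes. The summed TPM of the cell-cycle CDKs was 508 to 870 in *timeless* and 1033 to 1133 in wild type.

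The mitotic and S-phase cyclins were examined in the same way. *CCNB2* was at 429, 472 and 473 TPM in wild type and at 390, 225 and 362 TPM in *timeless* (-0.43, SE 0.21, adjusted p = 0.287). *CCNB3* was at 190, 214 and 222 TPM and at 219, 165 and 212 TPM, a difference of 0.00 (SE 0.16) with overlap. *CCNA2*, which partners CDK2 and CDK1, was at 162, 182 and 182 TPM and at 166, 89.1 and 130 TPM (-0.40, SE 0.21, adjusted p = 0.316). *CCNF*, which is not a CDK activator but the substrate receptor of an SCF ubiquitin ligase, came closest to the threshold. It was at 65.7, 60.2 and 59.5 TPM in wild type and at 50.4, 26.3 and 25.4 TPM in *timeless* (-0.82, SE 0.23, adjusted p = 0.0647). DESeq2 called it, as did edgeR with no TPM limit, without *timeless* library 1 and with the replicate block described below. The other fits did not.

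The CDC25 phosphatases lay on opposite sides of wild type. *CDC25A*, which acts on CDK2 and CDK1, was at 88.9, 114 and 129 TPM in wild type and at 76.3, 62.6 and 71.2 TPM in *timeless*, without overlap (-0.60, SE 0.18, adjusted p = 0.0773). *CDC25B* was at 248, 307 and 307 TPM and at 371, 328 and 417 TPM, all higher (0.44, SE 0.18, adjusted p = 0.211). *CDC25B* was also higher in every library labelled *fancj*, at 373, 470 and 437 TPM (0.65, SE 0.25, adjusted p = 0.25). In *ddx11*, at 421, 288 and 346 TPM, it overlapped wild type. Neither gene passed in a comparison with wild type in edgeR with all libraries. DESeq2 called *CDC25A* in *timeless*, as did edgeR without wild-type library 1.

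**Figure D3:**
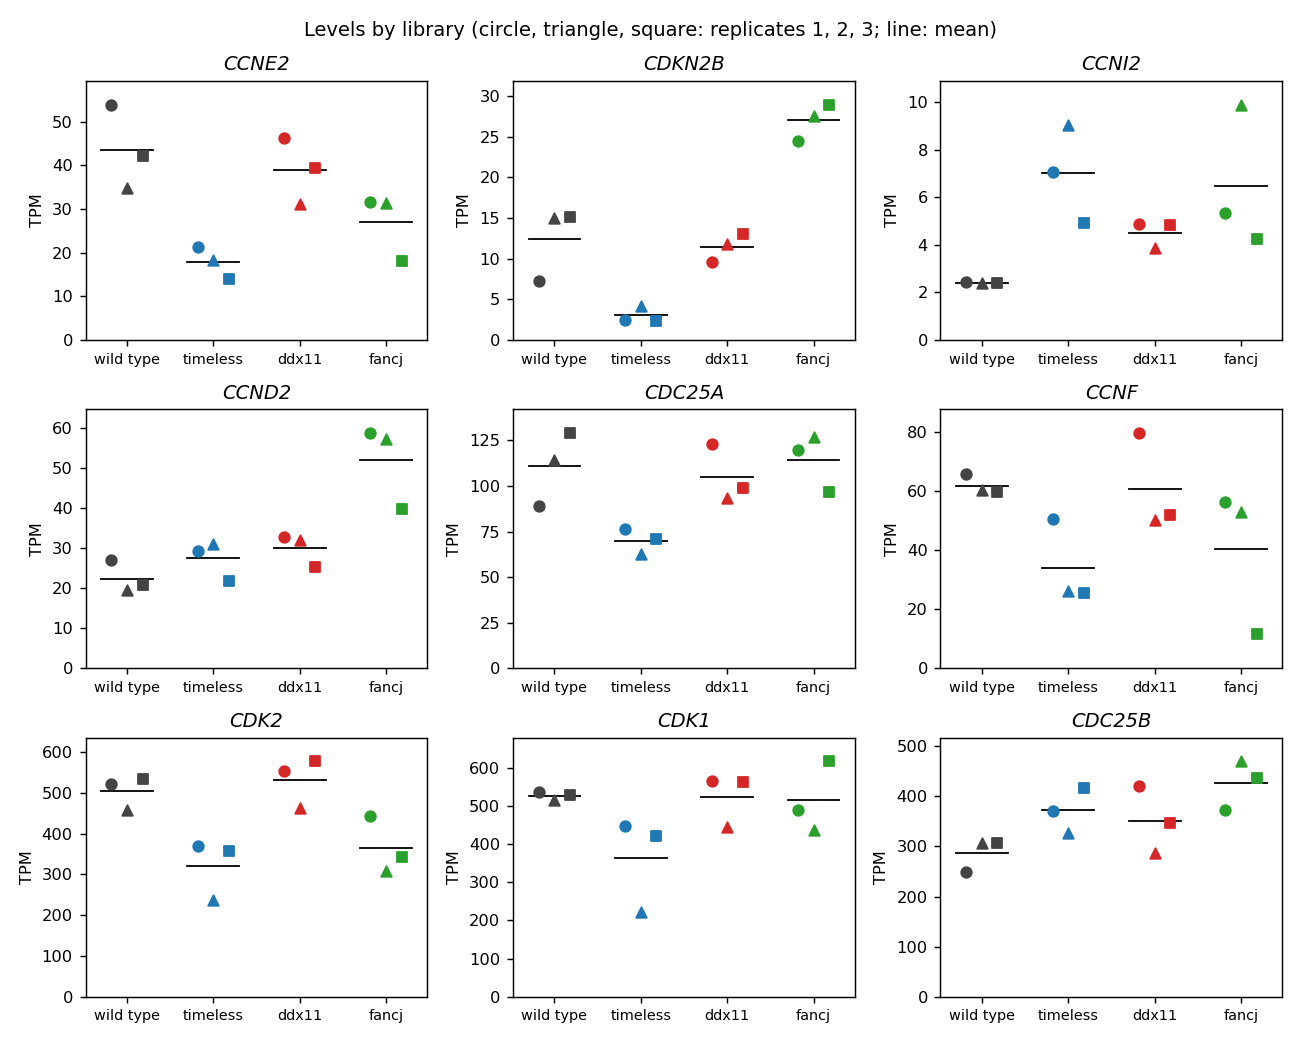
TPM by library of the 4 members altered in a comparison with wild type and of 5 others described in the text; each panel has its own axis from 0, symbols stand for replicates 1, 2 and 3 and the black line for the mean. *CCNE2* and *CDKN2B* are below wild type in all *timeless* libraries, and *CCND2* is above wild type in all libraries labelled *fancj*.

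In *ddx11*, none of the 42 members was altered by edgeR, and none by the Wald test of DESeq2, while 2.62% of 11470 genes were. At an unadjusted p under 0.05 there were 4 members (9.5%) and 11.1% of all genes. The libraries did not overlap with wild type for 5 members (11.9%), against 14.4% of all genes. These were *CCNH*, lower, and *CCNB3*, *CCNI2*, *CCNL2* and *CDK20*, higher. *CCNH*, the cyclin of the CDK-activating kinase, was at 26.2, 25.3 and 24.9 TPM in wild type and at 24.0, 21.0 and 21.3 TPM in *ddx11* (-0.28, SE 0.13, adjusted p = 0.485). *CDK1* was at 565, 446 and 562 TPM in *ddx11*, *CDK2* at 554, 463 and 577 TPM and *CCNA2* at 210, 136 and 160 TPM, each range enclosing or overlapping that of wild type. The lowest values, -1.74 for *CCNA1* (SE 0.78) and -0.90 for *CCNO* (SE 0.63), were of members under 10 TPM.

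In the libraries labelled *fancj*, 1 of 42 members was altered, *CCND2*, which rose. Over all 11824 genes, 2.87% rose and 1.41% fell. At an unadjusted p under 0.05 there were 10 members (23.8%) and 16.9% of all genes. Libraries did not overlap with wild type for 14 members (33.3%), 8 of them higher, against 23% of all genes. The median log2 fold change was -0.10 for the members and 0.03 for all genes.

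*CCND2* (ENSGALG00000017283), a D-type cyclin that carries growth signals into G1, was at 27.0, 19.5 and 20.7 TPM in wild type. The values were 58.8, 57.4 and 39.8 TPM in the libraries labelled *fancj*, above every library of the other lines. The log2 fold change was 1.32 (SE 0.20, adjusted p = 0.0169, edgeR), and it passed in 3 of the 6 fits without a library (1.25 to 1.46, adjusted p 0.0107 to 0.122), including the fit without library 3 of *fancj*. It was at 29.4, 31.1 and 21.9 TPM in *timeless* (0.43, SE 0.18) and at 32.7, 32.2 and 25.3 TPM in *ddx11* (0.37, SE 0.16), and neither difference passed.

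The other D-type cyclins did not pass in edgeR, and DESeq2 called *CCND1* in the libraries labelled *fancj*. *CCND1* was at 21.3, 29.9 and 24.97 TPM in wild type and at 40.5, 49.2 and 34.3 TPM in the libraries labelled *fancj*, all higher (0.74, SE 0.21, adjusted p = 0.12). *CCND3* was at 82.7, 77.1 and 115 TPM and at 100, 76.1 and 65.4 TPM, with overlap (-0.14, SE 0.23). *CCND2* made 12.9% to 20.6% of the D-type TPM in wild type and 28.5% to 31.4% in the libraries labelled *fancj*. In *timeless* and *ddx11* its share, 17.6% to 29.4% and 20.5% to 32.6%, overlapped both. *CCND3* stayed the highest of the 3 in every library of the series. In *timeless*, *CCND1* was at 28.8, 28.5 and 34.7 TPM (0.34, SE 0.20) and *CCND3* at 76.6, 46.2 and 67.9 TPM (-0.46, SE 0.22), and in *ddx11* they were at 30.8, 18.3 and 24.9 TPM and at 87.5, 48.3 and 73.5 TPM. None of these passed in edgeR.

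By their means, the *CDKN2* genes were highest in the libraries labelled *fancj*, though none passed against wild type in edgeR and only *CDKN2B* in DESeq2. *CDKN2C*, encoding p18, was at 300, 237 and 208 TPM in wild type and at 366, 356 and 336 TPM in *fancj* (0.58, SE 0.24, adjusted p = 0.28). In *timeless* it was at 188, 134 and 187 TPM, below every wild-type library (-0.48, SE 0.20, adjusted p = 0.205), and in *ddx11* at 185, 213 and 244 TPM, overlapping wild type. *CDKN2A* was at 563, 436 and 522 TPM in *fancj* (0.60, SE 0.26, adjusted p = 0.295) and at 372, 550 and 523 TPM in *ddx11* (0.39, SE 0.20). For *CDKN2A*, *CDKN2B* and *CDKN2C* alike, every library labelled *fancj* was above every wild-type library. The summed TPM of the *CDKN* members, with *CDKN2A* the largest part, was 843 to 980 in that line and 577 to 689 in wild type. *CDKN1A* stayed at or below 0.31 TPM in every line.

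Some members were low in library 3 of the line labelled *fancj*. *CDK19*, a Mediator kinase, was at 14.3, 10.7 and 1.30 TPM in that line and at 27.2, 13.2 and 11.9 TPM in wild type. *CDK14*, which partners cyclin Y, was at 20.1, 13.7 and 2.26 TPM, and *CCNY* at 9.44, 9.64 and 1.92 TPM. *CCNF* was at 56.4, 52.9 and 11.7 TPM, *CDK12* at 51.8, 60.4 and 14.9 TPM and *CDK6* at 76.8, 81.4 and 26.0 TPM. In each case library 3 was the lowest of the line, and none of these members passed against wild type. By the deposited lengths, *CDK6* and *CDK12* exceeded 4000 bases, while *CCNF* was 2715 bases, *CDK14* 1609 to 1813, *CDK19* 1335 to 1497 and *CCNY* 1026. These are lengths of annotated transcripts, and whether they match the mRNAs of these cells was not tested. The part of length in these low values was not tested either. *CDK1*, at 489, 437 and 617 TPM in this line, and *CDKN2B* were instead highest in library 3.

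The remaining cell-cycle members of the line labelled *fancj* were near wild type or lower. *CDK2* was at 445, 308 and 343 TPM, below every wild-type library (-0.40, SE 0.24, adjusted p = 0.476). *CCNA2* was at 179, 209 and 107 TPM, *CCNB2* at 448, 404 and 374 TPM and *CCNB3* at 217, 172 and 158 TPM, all overlapping wild type. *CCNE1*, at 24.1, 19.9 and 22.6 TPM, and *CDC25A*, at 120, 127 and 96.7 TPM, also overlapped. *CCNA1* was at 0.86, 0.83 and 0.65 TPM, under each wild-type library, but its log2 fold change of -2.12 (SE 0.88) rested on the single high wild-type library and did not pass.

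The transcriptional cyclins and CDKs gave no call in the fits with every library and no block. In wild type *CCNC* (68.5 ± 5.91 TPM), *CCNL1*, *CCNK* and *CCNL2* stood within 63.8 to 68.5 TPM by their means and overlapped each other. None of the 11 was altered in any of the 6 comparisons by edgeR with every library and no block. In those fits 2 values had an unadjusted p under 0.05, *CCNL2* in *timeless* against wild type and *CDK19* in *timeless* against *ddx11*. *CCNL2* was altered in the former when *timeless* library 2 was left out, and *CDK19* in the latter with the block. Against wild type, the values of the 6 cyclins lay between -0.14 and 0.45 in *timeless*, -0.28 and 0.20 in *ddx11*, and -0.36 and 0.37 in the libraries labelled *fancj*. *CCNC*, the Mediator cyclin, which had the highest wild-type mean of them, was at 61.7, 71.7 and 72.1 TPM in wild type and at 63.2, 52.1 and 69.5 TPM in *timeless*. Over the 12 libraries *CCNL2* had the higher mean, 72.2 TPM against 62.8 TPM for *CCNC*. It was at 59.8, 65.3 and 66.4 TPM in wild type, 96.4, 63.4 and 95.2 TPM in *timeless*, 83.0, 77.9 and 68.4 TPM in *ddx11* and 72.6, 71.0 and 47.0 TPM in the libraries labelled *fancj*. For *CCNC*, the *ddx11* libraries were at 68.3, 61.0 and 55.5 TPM. Those labelled *fancj*, at 57.0, 63.7 and 57.7 TPM, also overlapped *timeless*. *CDK7*, the catalytic subunit of the CDK-activating kinase and of TFIIH, was at 34.8, 29.3 and 36.4 TPM in wild type, 27.8, 19.3 and 30.0 TPM in *timeless*, 32.3, 28.7 and 26.9 TPM in *ddx11* and 30.7, 26.0 and 30.8 TPM in *fancj*. *CCNH* was at 22.9, 16.7 and 26.4 TPM in *timeless* and at 28.2, 27.9 and 35.0 TPM in *fancj*, the latter above every wild-type library (0.37, SE 0.30, adjusted p = 0.604). *CDK12*, which with cyclin K phosphorylates RNA polymerase II, was at 71.2, 55.4 and 57.2 TPM in wild type, 73.8, 38.4 and 54.6 TPM in *timeless* and 80.4, 48.2 and 51.2 TPM in *ddx11*. *CDK9*, the elongation kinase, had the highest mean of these kinases over the 12 libraries, 56.7 TPM against 54.8 TPM for *CDK12*. It was at 56.9, 58.4 and 60.3 TPM in wild type, 54.8, 54.0 and 48.8 TPM in *timeless*, 64.4, 48.4 and 55.4 TPM in *ddx11* and 65.4, 70.9 and 42.8 TPM in the libraries labelled *fancj*. The ranges of the 2 kinases overlapped in every line.

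Pairs of mutants were compared next. Between *timeless* and *ddx11*, 2 of 42 members differed, *CDKN2B* (-1.82, SE 0.32, adjusted p = 0.0174, edgeR) and *CCNE2* (-0.99, SE 0.18, adjusted p = 0.021), both lower in *timeless*, as were 2.16% of 11736 genes. All 3 *timeless* libraries lay below all 3 *ddx11* libraries for each. On the chromosome described above, which holds *CCNE2* but not *CDKN2B*, 14.4% of 665 matched genes were lower in *timeless*, against 1.0% elsewhere. In the fits without a library, *CDKN2B* passed in 2 of 6 and *CCNE2* in 3 of 6, and neither passed without *timeless* library 3 or *ddx11* library 3.

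Same-numbered libraries of *timeless* and *ddx11* deviated together from the means of their lines, and a fit with the replicate number as a block altered 11 members, all lower in *timeless*. The block was chosen from these same values, so its calls are no separate support. With the block 7.04% of all genes were lower in *timeless* and 6.84% higher. In this fit *CDKN2B* (-1.83, adjusted p = 0.0037) and *CCNE2* (-0.99, adjusted p = 0.00658) were joined by the cell-cycle kinases *CDK2* (-0.61, adjusted p = 0.0197) and *CDK6* (-0.63, adjusted p = 0.0399). It also called *CDC25A* (-0.44, adjusted p = 0.0399) and *CCNF* (-0.74, adjusted p = 0.00857). The other 5 were *CDK5*, *CDK14*, *CDK19*, *CCNG2* and *CCNI*, with values from -1.13 to -0.50. The values hardly moved from the fit without the block, in which *CDK2* was -0.59 and *CCNF* -0.70. Of these 11, *CCNE2*, *CDC25A*, *CDK5*, *CDK6* and *CDK14* are on the chromosome described above. There the median of 665 genes in this fit was -0.55, against 0.02 elsewhere. The share called lower in *timeless* was 48.0% on that chromosome and 4.1% elsewhere, so 7.04% is not the background for these 5. *CDKN2B*, *CCNF*, *CDK2*, *CCNG2*, *CCNI* and *CDK19* are on other chromosomes.

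Between the libraries labelled *fancj* and *timeless*, *CDKN2B* alone of the 42 members was altered, 3.21 higher on the log2 scale in *fancj* (SE 0.40, adjusted p = 0.0278, edgeR), as were 0.417% of 11995 genes. It was higher in every library labelled *fancj*, and the call held in 2 of the 6 fits without a library, those without *fancj* library 1 or 3. *CDKN2C* (1.06, SE 0.28, adjusted p = 0.139) and *CDC25A* (0.69, SE 0.22, adjusted p = 0.199) had no overlap between these lines and did not pass in this fit. DESeq2 and the fit of all 12 libraries called both, and *CCND2* as well. Between the libraries labelled *fancj* and *ddx11* none of the 42 members passed by edgeR, at a background of 0.782% of 11897 genes, and 6 (14.3%) had an unadjusted p under 0.05, as had 1663 of the 11897 genes. *CCND2* (0.95, SE 0.20, adjusted p = 0.0863) passed there when library 3 of *fancj* was left out. The Wald test of DESeq2 called 5 there, *CDKN2B*, *CDKN2C*, *CCND1*, *CCND2* and *CCNG1*, each with a positive log2 fold change in edgeR.

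A set of 6 members, chosen after their values were seen, were mostly high in the same libraries. The choice itself favoured that pattern. Not all had a wide spread: *CCNI* spanned 1.41- to 1.66-fold within lines. *CDKN1B* was at 33.3, 9.87 and 13.1 TPM in wild type, 13.7, 49.2 and 8.73 TPM in *timeless*, 14.7, 46.7 and 26.4 TPM in *ddx11* and 26.9, 23.2 and 23.2 TPM in *fancj*. It was highest in library 1 of wild type and in library 2 of both *timeless* and *ddx11*. *CCNG2*, an atypical cyclin, was at 43.5, 25.7 and 32.2 TPM in wild type, 25.8, 35.3 and 17.7 TPM in *timeless* and 35.6, 59.7 and 36.0 TPM in *ddx11*. *CCNI*, at 205, 289 and 216 TPM in *ddx11*, and *CDK5*, at 58.4, 35.0 and 37.6 TPM in wild type, 26.0, 41.3 and 26.9 TPM in *timeless* and 41.1, 54.7 and 51.9 TPM in *ddx11*, had their highest values in those same libraries. So did *CDK14*, at 49.6, 18.9 and 16.2 TPM in wild type, 19.0, 19.6 and 5.91 TPM in *timeless* and 29.9, 42.5 and 28.4 TPM in *ddx11*. *CDK19*, at 11.8, 11.4 and 3.72 TPM in *timeless* and 16.5, 26.2 and 18.4 TPM in *ddx11*, was the exception in *timeless*, where library 1 was highest. *CDKN1B* spanned 3.37-fold in wild type, 5.63-fold in *timeless* and 3.18-fold in *ddx11*, and no comparison of it passed. *SESN2*, a stress-response gene of the p53 list, was at 166 TPM in *timeless* library 2 and 70.0 TPM in *ddx11* library 2, against 4.89 to 9.39 TPM in the other libraries of these lines. In wild type, with values given below, *SESN2* was not highest in library 1. Whether these libraries differed in growth state was not tested.

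**Figure D4:**
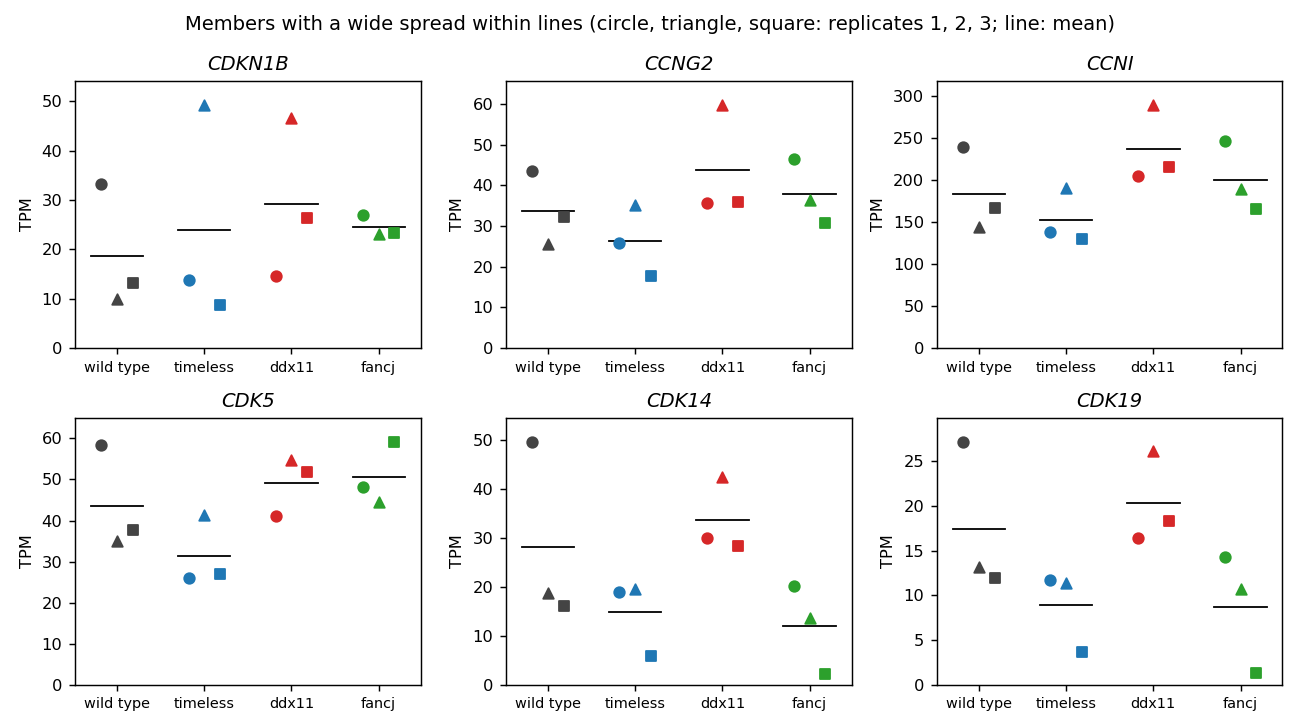
TPM by library of 6 members chosen after their values were seen. Axes start at 0, symbols stand for replicates 1, 2 and 3 and black lines for means. In *ddx11* library 2 (triangles) is highest in all 6 panels, and *CDKN1B* reaches 49.2 TPM in *timeless* library 2.

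The spread within lines bounds what could be called. The median member differed 1.28-fold between the lowest and highest library of wild type, 1.56-fold in *timeless*, 1.39-fold in *ddx11* and 1.49-fold in the line labelled *fancj*, against 1.31, 1.54, 1.44 and 1.97 for all expressed genes. A range of 2-fold or more was seen for 6, 8, 3 and 12 of the 42 members in these lines. The shares of all expressed genes were 13.1%, 23.3%, 14.8% and 49.0% in the same order. The widest were *CDK19* in *fancj* (11-fold), *CCNO* in *timeless* (9.27-fold) and *CCNA1* in wild type (9.07-fold). At the other end *CCNI2* spanned 1.03-fold, *CDK1* 1.04-fold and *CCNH* 1.05-fold in wild type. The *CCNI2* values rested on 22, 81 and 28 expected counts, too few to fix its level that closely.

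The regulators around the CDKs were described from 4 lists. Their counts are to be read against the shares of all genes given above, 3.89% lower and 4.31% higher in *timeless*, 2.62% altered in *ddx11*, and 1.41% lower and 2.87% higher in the libraries labelled *fancj*, which 1 gene of a list does not clearly exceed. In *timeless*, 1 of 19 tested genes of the RB, E2F and DREAM list was altered, *E2F1*, the activator of S-phase genes, which fell by 0.81 (log2, SE 0.17, adjusted p = 0.0232, edgeR). It was at 340, 272 and 311 TPM in wild type and at 167, 194 and 141 TPM in *timeless*. In the libraries labelled *fancj*, at 161, 188 and 143 TPM, *E2F1* was also below every wild-type library and lay just outside the threshold (-0.86, SE 0.18, adjusted p = 0.0502). At an unadjusted p under 0.05 there were 6, 3 and 4 of its list's 19 genes in *timeless*, *ddx11* and *fancj*. The shares of all genes were 21.7%, 11.1% and 16.9%. The list's median was -0.35 in *timeless*, -0.05 in *ddx11* and -0.39 in *fancj*. In *fancj* it had 1 altered gene, *MYBL1* (-2.42, adjusted p = 0.0155), at 20.4, 23.8 and 7.72 TPM against 67.4, 69.8 and 93.8 TPM in wild type. Of this list, *MYBL1* (-1.86 in *timeless*), *E2F3* (-0.90) and *E2F5* (-0.48) are on the chromosome described above. The part of that chromosome in the list's *timeless* median was not tested.

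Of the kinases and adaptors that modify CDKs, 1 of 20 tested was altered in *timeless*, *CHEK1*, the checkpoint kinase that acts on CDC25 proteins (-0.69, SE 0.16, adjusted p = 0.0323). It was at 317, 241 and 314 TPM in wild type and at 195, 154 and 169 TPM in *timeless*. None of 21 passed by edgeR in *ddx11* or the libraries labelled *fancj*, with 0 and 2 at an unadjusted p under 0.05. Among the 29 genes of cyclin destruction by the APC/C and SCF ligases, *CUL1*, the SCF scaffold, fell in *timeless* (-0.61, SE 0.14, adjusted p = 0.0303) and is on the chromosome described above. *UBE2S*, the ubiquitin-chain enzyme of the APC/C, fell in the libraries labelled *fancj* (-1.06, SE 0.19, adjusted p = 0.0296), to 134, 159 and 122 TPM from 274, 290 and 333 TPM. Of these 29 genes, 1, 0 and 2 had an unadjusted p under 0.05 in *timeless*, *ddx11* and *fancj*.

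By edgeR the p53 list had none of 14 genes altered in *timeless*, 1 of 14 lower in *ddx11* and 1 of 15 higher in the libraries labelled *fancj*. The medians were 0.48, 0.04 and 0.45. At an unadjusted p under 0.05 there were 4 of 14, 4 of 14 and 5 of 15 genes in this order. The shares of all genes were 21.7%, 11.1% and 16.9%. *BTG2*, an antiproliferative gene, was at 25.7, 26.4 and 25.4 TPM in wild type and at 12.6, 14.3 and 15.6 TPM in *ddx11* (-0.93, SE 0.16, adjusted p = 0.0217). It was higher in *timeless* than in *ddx11* (1.43, adjusted p = 0.00695). *SESN2* rose in the libraries labelled *fancj* (1.45, SE 0.29, adjusted p = 0.0411), from 6.76, 5.88 and 7.52 TPM to 14.4, 28.9 and 12.1 TPM. No other gene of the 4 lists was altered by edgeR in any of the 6 comparisons.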

How the data were processed

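Poly(A) RNA-seq of 12 DT40 libraries was used, 3 for each of 4 lines, grouped by the genotype and replicate number in the labels. The authors used Bowtie 2 for alignment to GRCg6a and RSEM for quantification with an Ensembl annotation. The tool versions and the use of strand are not given in the sources used here, so overlapping and antisense genes are uncertain. The deposited expected counts are RSEM estimates that need not be whole and are not normalized for depth. For TPM the authors scaled by gene length and to a total shared by all libraries. The deposited FPKM values were not used, and the deposited length of each gene, in bases, served only to separate long from short genes, with a pseudocount of 0.1 TPM for log2 differences. Totals of expected counts were 13406041 to 50160512 per library (median 20125298), and the precision of low members is limited by the libraries of lowest depth.

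Rounded expected counts entered edgeR 4.0.16 under R 4.3.3 (TMM, quasi-likelihood, two-sided, Benjamini-Hochberg over all genes tested, adjusted p under 0.05), with the 6 libraries of 2 lines per fit, for 6 comparisons. The study's EBSeq was not used here. Genes were kept where either line of a pair had a mean TPM of 1 or more. Each SE is the absolute log2 fold change divided by the square root of F. Exact permutation of 3 against 3 libraries cannot reach 0.05 for a single gene and was not run. The study states that replicates are independent, and the labels do not, so p-values measure the spread between these libraries. No 2 libraries of a line agreed within sampling noise.

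The members, classes, pathway lists and tests were chosen with earlier results of these data known. Library values are given for altered members, the highest member of each class, expressed *CDKN* and *CDC25* genes and the main cell-cycle cyclins and CDKs; the other members are given by ranges and counts. RefSeq symbols of assembly GRCg7b placed genes on chromosomes and beside each other, and no coordinates are given since the builds differ.

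The replicate numbers were taken as pairs where all 3 correlations of same-numbered deviations from the line means were over 0.1: *timeless* and *ddx11* (0.407, 0.551, 0.341), *fancj* and wild type (0.279, 0.104, 0.174), and *fancj* and *timeless* (0.323, 0.165, 0.492). The labels give no other ground for pairing, so the pairs were chosen from the values that the blocked fits test. On simulated counts for *timeless* against wild type, with 200 of 11653 genes changed, 64% of 2-fold and 99% of 4-fold changes were recovered and 5.8% of calls were false. These counts had the same dispersion for every gene and no outlying library, so the rates check the code and do not measure recovery in the sequenced libraries. Alternatives were other TPM limits, filterByExpr, upper-quartile factors and DESeq2 size factors within edgeR, DESeq2 1.42.0 with its Wald test, the replicate block, all 12 libraries in 1 fit, and leaving out each library.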

Additional observations from a re-analysis of the deposited data

Results flagged for a closer look

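Effects against wild type that differed between mutants by the test of the mutants themselves (edgeR, adjusted p) were *CDKN2B* in *timeless* and *ddx11*, *CCNE2* in *timeless* and *ddx11*, and *CDKN2B* in the libraries labelled *fancj* and *timeless*. *CDKN2B* was 1.82 lower on the log2 scale in *timeless* than in *ddx11* (log2 fold change -1.82), with a difference from wild type of -2.00 in the former and -0.19 in the latter. *CCNE2* differed by -0.99, with -1.23 from wild type in *timeless* and -0.23 in *ddx11*. *CDKN2B* differed by 3.21 between the libraries labelled *fancj* and *timeless*, with 1.20 and -2.00 from wild type. Groups of 3 libraries are too small for a test of outlying samples.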

How the results depend on the processing

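No member's log2 fold change turned direction with a call on either side. The 7 calls on members were kept under all 8 settings that used every library, and leave-one-out fits lost all of them at least once except *CCNE2* in *timeless* against wild type. Leaving out *timeless* library 2 added *CCNY* and *CCNL2* to the calls in *timeless* against wild type. In *timeless* against wild type, *CCNE2* alone remained without wild-type library 2 or 3. The count of altered members was 3 in this comparison and 5 by DESeq2's Wald test (with *CDC25A* and *CCNF*). It was 4 with no TPM limit (with *CCNF*) and 1 to 4 with a library left out. It was 1 in *fancj* against wild type, 5 by DESeq2 (with *CDKN2B*, *CCND1*, *CCNE2* and *CCNI2*), 3 with all 12 libraries in 1 fit (with *CCNE2* and *CCNI2*) and 0 to 1 with a library left out; *CCND2* was lost without *fancj* library 2 or wild-type library 2 or 3. It was 2 in *timeless* against *ddx11* and 0 to 2 with a library left out. It was 1 in *fancj* against *timeless*, 4 by DESeq2, 4 with all 12 libraries (both with *CDC25A*, *CDKN2C* and *CCND2*) and 0 to 1 with a library left out. It was 0 in *fancj* against *ddx11*, 5 by DESeq2, 2 with all 12 libraries and 0 to 1 with a library left out, the 1 being *CCND2* without *fancj* library 3. In *ddx11* against wild type it was 0 in every fit. Except where samples or genes tested were fewer, the cause was not tested.

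With the replicate block the count was 11 in *timeless* against *ddx11*, 4 in *timeless* against wild type (with *CCNF*, -0.87, adjusted p = 0.0295), and 1, 1, 0 and 0 in *fancj* against wild type, *fancj* against *timeless*, *fancj* against *ddx11* and *ddx11* against wild type, as without it. The numbers do not pair *timeless* with wild type (correlations 0.098, -0.103 and 0.216), *ddx11* with wild type (-0.243, -0.285 and 0.062) or *fancj* with *ddx11* (0.049, -0.04 and 0.432). Over all genes the block moved the count from 601 to 1629 in *timeless* against *ddx11*, from 102 to 247 in *fancj* against *timeless* and from 301 to 142 in *ddx11* against wild type.

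Over all genes the counts in the order *timeless*, *ddx11* and *fancj* against wild type were 955, 301 and 506; DESeq2 gave 1499, 547 and 1319, all 12 libraries 721, 172 and 1030, a limit of 1 TPM in both lines 611, 153 and 116, no limit 1388, 514 and 709, and fits without a library 349 to 957, 98 to 462 and 45 to 864. For *timeless* against *ddx11*, *fancj* against *timeless* and *fancj* against *ddx11* they were 601, 102 and 93; DESeq2 gave 1182, 847 and 836, all 12 libraries 412, 802 and 500, a limit of 1 TPM in both lines 257, 13 and 10, no limit 867, 265 and 319, and fits without a library 189 to 676, 0 to 242 (0 when any 1 *timeless* library was left out) and 3 to 491. The share of all genes called, beside which members are counted, moves with these. With 3 libraries a line, changes of members under 10 TPM, such as *CCNI2*, *CCNA1* and *CCNO*, are the least certain.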
